A study of Mus musculus with 6 samples.

Results

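The 8 genes Enah, Clptm1l, Agpat2, Ppp1r15b, Nptx1, Arih1, Dusp7 and Iffo2 each carry a region of low CG methylation at their 5′ end in embryos that had received sperm small RNAs of depressed males. They were chosen from 4040 named genes in the authors' deposited table for a CG region of 30 or more listed CG cytosines at the promoter, 5′ UTR or exon. The genes are listed with 27 of 9707 regions, of which 8 are CG regions out of 880 in all, 12 CHG regions and 7 CHH regions (H is any base but G). The levels and the cytosine count of the CG contrast made this choice, so every value below describes the deposited table and none is a test.

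Whole-genome bisulfite sequencing was done on 6 embryos of C57BL/6 background at embryonic day 4.5, each sequenced alone. Sperm small RNAs at 2 ng/µl had been microinjected into the fertilised eggs about 108 h earlier. Sperm of males with depression induced by stress supplied the RNA of 3 of them, called depressed-RNA embryos (replicates 1, 3 and 4), and sperm of normal males that of the other 3, called normal-RNA embryos (replicates 1, 2 and 4). The design asks whether RNA of depressed males leaves another methylation pattern than RNA of normal males, and no uninjected embryo was analysed here. The table gives 1 mean level for each group and region. Values per embryo fill 0 of its columns, so depth, spread between embryos and any test between groups are out of reach. A level is an average over the whole embryo, in which the share of methylated cells and the methylation per cell cannot be told apart. The table holds no expression values, so the stage was not checked against marker genes.

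CpG islands are stretches rich in CpG dinucleotides that lie at the start of many mouse genes and are usually kept free of methylation. Dense methylation there is known to accompany lasting silencing of a gene. In the blastocyst, methylation over most of the genome is low after the erasure that follows fertilisation, and CHG and CHH methylation is scarce in most mammalian tissues.

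All 8 CG regions lay inside a listed CpG island, a property the choice did not use by name, although it goes with a high cytosine count. Of all 880 CG regions, 28 lay in an island (3.18%). All 13 CG regions of 30 or more listed cytosines lay in an island, so nothing particular to the 8 genes is read from this. The annotation was an exon for all 8 genes, the 5′ UTR for 6, the promoter for 5 and an intron as well for 2. No repeat was listed at any of the 8. The genes lie on 6 chromosomes, with Arih1 and Dusp7 on chromosome 9, Enah and Ppp1r15b on chromosome 1, and the others apart.

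The letters of the promoters show what these islands look like next to the regions. The reference promoter table (RefSeq, GRCm38.p6, the assembly also named mm10) held a window for 5 of the 8 genes, from 250 bases before to 50 after a start. The region of Arih1 overlapped its window, by 83 bp. The 30 bases just before the start are printed 5′ to 3′ along the gene for these 5 genes, with each CpG in capitals, to set the CpG content beside the listed regions. Iffo2 has a start near its region and a distant one, and both are shown. The bases of Arih1 (chr9:59486375-59486404, minus strand) lie wholly inside its listed region. The others are Enah (chr1:182019981-182020010, minus strand), Agpat2 (chr2:26604418-26604447, minus strand), Dusp7 (chr9:106368602-106368631, plus strand), the Iffo2 start near the region (chr4:139574690-139574719, plus strand) and the distant Iffo2 start (chr4:139530518-139530547, plus strand).
Arih1: CGtcccCGccctctcCGCGcCGCGgccagc
Enah: tcctcCGcCGcccCGccccCGgCGcccCGc
Agpat2: gagggtgacaccCGaagggcCGagggaggc
Dusp7: tttaattggggctgtcaggcCGCGgcaCGc
Iffo2, near start: ctgctgCGgcCGgtccacagcagctctgac
Iffo2, distant start: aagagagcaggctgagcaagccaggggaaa

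The 30 bases before the start held 6 CpGs in Arih1 and in Enah, 3 in Dusp7, 2 in Agpat2 and at the near start of Iffo2, and 0 at its distant start. Over the 300 bases of a window, Arih1 had 50 CpGs, Enah 49, Dusp7 41, Agpat2 26 and the near start of Iffo2 24, against a median of 7 over 32851 windows. The distant start of Iffo2 had 3 CpGs, lay outside the island of the region and was 44659 bp from the centre of the region. The GC box GGGCGG, the site of SP factors, was found on either strand in all 5 windows near a region, against 35.7% of all windows. These 5 windows had a GC share of 71.7 to 83.3%, against a median of 52.7% over all windows. A motif of G and C letters goes with genes chosen for CG cytosines, so nothing is read from its share. Dusp7 also had CCAAT, which 37.4% of windows hold. TATAAA (13.6% of windows), the NRF1-like motif (6.23%), CACGTG (7.15%) and TGACGTCA (1.79%) were found in none of the member windows on either strand.

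**Figure D1:**
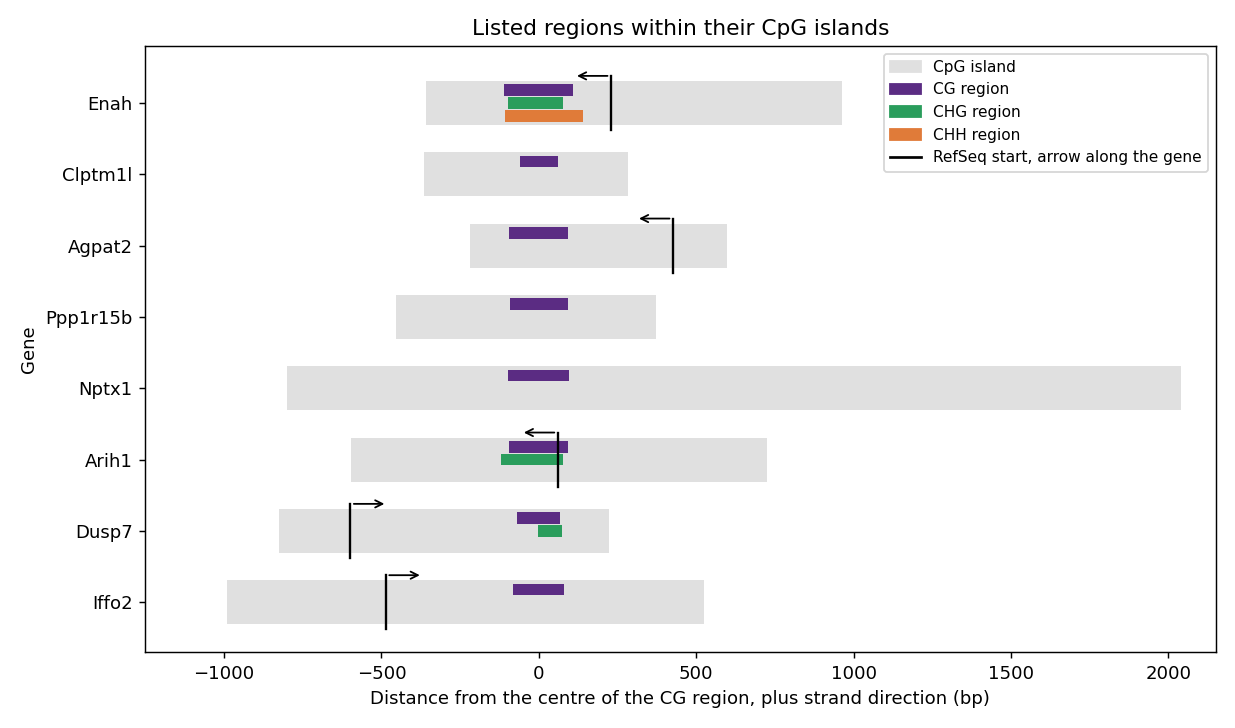
Position of the listed regions within their CpG islands, as distance in bp from the centre of the CG region along the plus strand, for the 8 genes. Grey bars are islands, coloured bars are CG, CHG and CHH regions, and black lines with arrows are RefSeq starts, drawn for the 5 genes with a promoter window. A CG region covers between 6.90% (Nptx1) and 23.1% (Agpat2) of its island.

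The map of regions within islands shows that each listed region is a short piece of its island. Region lengths ran from 123 bp in Clptm1l to 219 bp in Enah, and islands from 651 bp in Clptm1l to 2841 bp in Nptx1. No island held a further CG region. The nearest other CG region lay 111 kb away for Dusp7 and 876 kb away for Enah, the smallest and the largest such gaps among the 8. From the centre of the region, the RefSeq start in the promoter table was 61.0 bp away in Arih1, 230 bp in Enah, 427 bp in Agpat2, 487 bp in Iffo2 and 599 bp in Dusp7. For the 3 genes with no window, the nearer end of the RefSeq gene span was 128 bp away in Nptx1, 151 bp in Clptm1l and 367 bp in Ppp1r15b.

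CG methylation was near 0 in depressed-RNA embryos at all 8 regions and between 9.69 and 37.9% in normal-RNA embryos. Across the 8, the median of the authors' means was 1.22% in depressed-RNA embryos (0.852 to 2.49%) and 15.0% in normal-RNA embryos. All 8 regions were lower in depressed-RNA embryos, a direction that 98.5% of the 880 CG regions share and from which nothing is read here.

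Enah encodes a protein of the Ena/VASP family, which lengthens actin filaments at the cell edge. Its CG region (chromosome 1, 182019641 to 182019859; promoter, 5′ UTR and exon) was at 0.933% in depressed-RNA embryos against 23.6% in normal-RNA embryos over 74 listed cytosines. By the authors' statistic it ranked 3 among the 867 lower CG regions. Both regions ranked above it lie on chromosome 17 and are listed with no gene name. The genes were chosen for many listed cytosines, so a high rank of the whole-region statistic is not independent of the choice. Per listed cytosine the statistic of Enah was -5.04, against a median of -5.54 over the lower CG regions.

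Clptm1l and Agpat2 encode membrane proteins. Clptm1l, a relative of the cleft lip and palate protein CLPTM1, had 0.852% in depressed-RNA embryos and 16.3% in normal-RNA embryos (chromosome 13, 73604092 to 73604214; 5′ UTR and exon, 51 cytosines). Agpat2 makes phosphatidic acid, and loss of the human gene is known to cause lipodystrophy. It had 1.03% in depressed-RNA embryos against 13.7% in normal-RNA embryos (chromosome 2, 26603896 to 26604084; promoter, 5′ UTR, exon and intron, 56 cytosines). The same region is listed for an intron of the predicted gene Gm20532. Neither Clptm1l nor Agpat2 was listed with a CHG or CHH region, so for both the CG region was the single entry.

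Ppp1r15b, Arih1 and Dusp7 act on proteins that are already made. Ppp1r15b, also known as CReP, directs a phosphatase to the initiation factor eIF2α and so counters the integrated stress response. Its region (chromosome 1, 133131440 to 133131625; 5′ UTR and exon, 49 cytosines) was at 1.42% in depressed-RNA embryos and 11.9% in normal-RNA embryos. Arih1, a ubiquitin ligase that works with cullin complexes, stood apart from the other genes with 37.9% in normal-RNA embryos, against 2.49% in depressed-RNA embryos (chromosome 9, 59486219 to 59486407; promoter, 5′ UTR and exon, 31 cytosines). Dusp7, a phosphatase that inactivates ERK, had 2.14% in depressed-RNA embryos and 18.0% in normal-RNA embryos (chromosome 9, 106369163 to 106369299; promoter and exon, 30 cytosines). Arih1 and Dusp7 thus had the highest depressed levels of the 8 and also the fewest listed cytosines.

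Nptx1 and Iffo2 complete the set. Nptx1, a pentraxin secreted by neurons that gathers AMPA receptors at synapses, was the single gene of the 8 with a listed transcription-start annotation. By RefSeq, however, the gene span of Nptx1 ended at 119547820, outside the region. The RefSeq start of Arih1 (59486374) did lie inside the CG region of that gene. Nptx1 had 1.18% in depressed-RNA embryos and 12.8% in normal-RNA embryos (chromosome 11, 119547595 to 119547790; 45 cytosines). Iffo2, a relative of intermediate filament proteins, had the smallest contrast, with 1.27% in depressed-RNA embryos against 9.69% in normal-RNA embryos (chromosome 4, 139575125 to 139575288; exon and intron, 39 cytosines). None of the 867 lower CG regions had a smaller normal level than that of Iffo2.

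**Figure D2:**
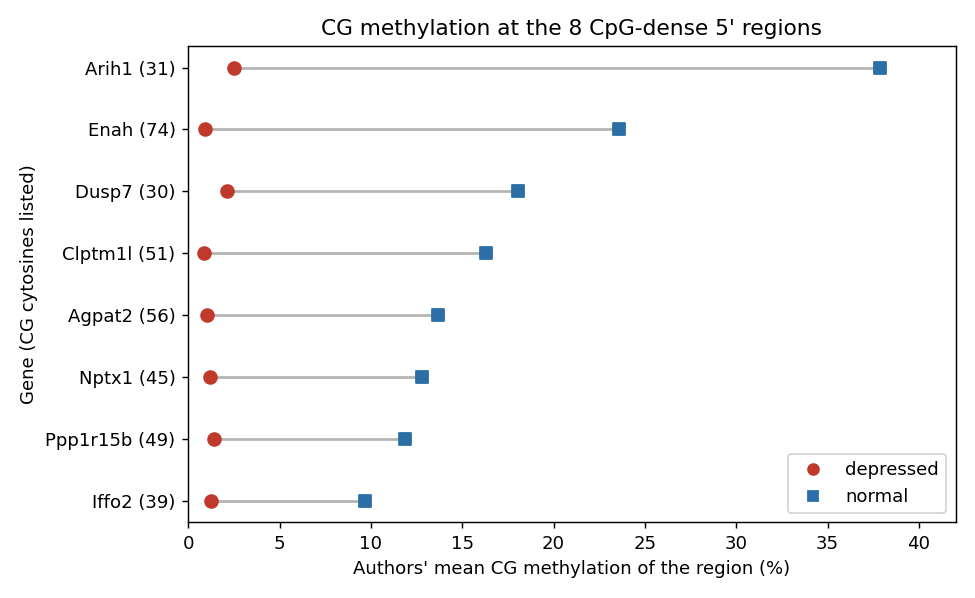
The authors' mean CG methylation (percent) of the 8 regions, in depressed-RNA (circles) and normal-RNA embryos (squares), with the number of listed CG cytosines beside each gene. Depressed levels lie between 0.852 and 2.49%, normal levels between 9.69 and 37.9%, with Arih1 highest in both groups.

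The 8 regions differed from most of the CG list by a low level in normal-RNA embryos. The 867 lower CG regions had a median of 4.92% in depressed-RNA embryos and 70.2% in normal-RNA embryos, with a median of 5 cytosines. Beside them the 8 regions had a median difference (depressed minus normal) of -14.1 percentage points, against -64.2 over the lower CG regions. Per listed cytosine the authors' statistic had a median of -4.74 in the 8 regions (-6.35 to -3.80), against a median of -5.54 over the lower CG regions. By the size of the difference, the 8 regions ranked between 2 (Iffo2) and 30 (Arih1) from the smallest of the 867.

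Other island regions shared these low levels where they held many cytosines. The 7 lower island regions of 20 to 29 cytosines had medians of 1.20% in depressed-RNA embryos and 15.6% in normal-RNA embryos, close to the 8 regions. The 6 lower island regions of under 20 cytosines had medians of 7.71% and 60.7%, depressed and normal. Promoter and 5′ UTR regions outside islands resembled the whole list, with medians of 4.67% in depressed-RNA embryos and 69.9% in normal-RNA embryos over 109 regions.

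**Figure D3:**
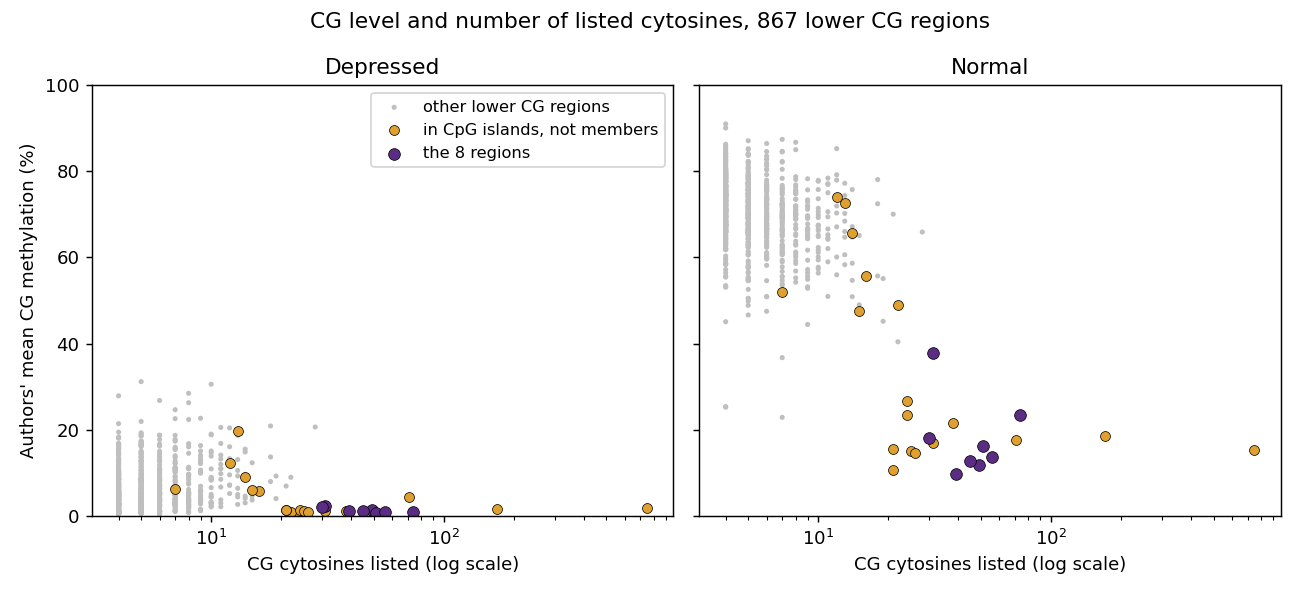
The authors' mean CG methylation (percent) against the number of listed CG cytosines (log scale) for the 867 lower CG regions, depressed on the left and normal on the right. Normal levels of regions with 30 or more cytosines lie below 40%, most other regions between 45 and 91%.

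The threshold of 30 cytosines has no gap in the values around it. In a promoter, 5′ UTR, start or exon, 12 regions reached it, 10 of them with a gene name. Besides the 8 genes these included Mlf2 (1.26% in depressed-RNA embryos against 16.9% in normal-RNA embryos, 31 cytosines), which lay in an island too. Just inside stood Dusp7 with 30 cytosines. Just outside were Lrp10 (28 cytosines, 20.7% in depressed-RNA embryos against 65.9% in normal-RNA embryos), Stox2 (26, 1.06% against 14.6%), Zfp704 (25, 1.20% against 15.2%), the neurofilament gene Nefm (24, 1.53% against 26.7%) and BC005537 (22, 0.943% against 49.0%). Lrp10 alone of these 5 lay outside an island.

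The number of cytosines may not measure CpG density in the same way in every region. In Clptm1l, 51 cytosines were listed in 123 bp, while no stretch of that length in the 32851 promoter windows held more than 34 CpGs. In Enah (74 against at most 52 in 219 bp), Agpat2 (56 against 47) and Ppp1r15b (49 against 46) the listed number also exceeded the most found. No window overlaps the CG region of any of these genes, so the CpGs of the regions themselves were not counted. In Arih1 the 83 bp shared with the promoter window alone hold 17 CG cytosines on each strand, while 31 are listed for the whole 189 bp. The 5 CG regions of the table that lie wholly inside a window listed the number found on the strand with more. They are small, with 4 to 7 listed cytosines. Whether the authors counted 1 or both strands, or covered cytosines only, is not stated in any source at hand. The order of the 8 genes by this number is therefore not read as an order of CpG density.

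Cytosines outside CG were also lower in depressed-RNA embryos at the same place in 3 genes. CHG or CHH regions overlapped the CG region of Enah, Arih1 and Dusp7, 3 of the 8, against 5.00% of all CG regions and 9 of the 18 other lower regions in islands. At Arih1 the CHG level was 2.35% in depressed-RNA embryos and 35.0% in normal-RNA embryos, so the normal CHG level was 92.4% of the normal CG level, with 172 bp shared. At Enah the CHG level was 0.227% in depressed-RNA embryos against 7.25% in normal-RNA embryos, and the CHH level 0.355% against 8.60%, or 30.8 and 36.5% of the CG level of normal-RNA embryos. At Dusp7 the CHG level was 0.240% in depressed-RNA embryos and 6.09% in normal-RNA embryos, 33.8% of the normal CG level. Conversion rates of the libraries were not analysed here, and the part of the non-CG signal in the CG levels was not tested. The CG regions of Clptm1l, Agpat2, Ppp1r15b, Nptx1 and Iffo2 had no CHG or CHH region over them.

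Away from the 5′ end, the 3′ UTRs of 3 genes held most of the further regions. Of 19 CHG and CHH regions listed with the genes, those over the 5′ CG regions included, 11 lay in the 3′ UTR of Enah, Nptx1 or Ppp1r15b. All 12 CHG regions were lower in depressed-RNA embryos, as were 91.0% of all CHG regions, and 5 of 7 CHH regions were lower, against 20.4% of all CHH regions. Among the lower regions of the 8 genes, 8 of 12 CHG and 3 of 5 CHH regions were in a 3′ UTR. Over all lower regions of the table, 47.7% of CHG and 43.0% of CHH regions were in a 3′ UTR.

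Enah carried 8 regions, the most of the 8 genes. In its 3′ UTR the CHG levels in order along the chromosome were 0.0650, 0.0353 and 0.105% in depressed-RNA embryos, against 70.3, 25.6 and 42.6% in normal-RNA embryos. A CHH region over the last of these was at 0.228% in depressed-RNA embryos and 28.5% in normal-RNA embryos. All of these 3′ UTR levels were under 0.3% in depressed-RNA embryos and above 25% in normal-RNA embryos. A further CHH region, in an intron and over the retroviral repeat RMER6C, ran the other way, with 6.38% in depressed-RNA embryos and 0.433% in normal-RNA embryos.

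Nptx1 carried 7 regions, 6 of them in its 3′ UTR. The CHG levels there were 0.334, 0.0758, 0.441 and 0.323% in depressed-RNA embryos, against 41.6, 15.3, 10.6 and 36.6% in normal-RNA embryos, in order along the chromosome. The longest region, 1637 bp with 99 CHH cytosines, was at 0.689% in depressed-RNA embryos and 29.3% in normal-RNA embryos, and a CHH region with 111 cytosines was at 0.411% against 14.1%. In normal-RNA embryos, 5 of these 6 levels exceeded the 12.8% of the 5′ CG region. Ppp1r15b had 1 CHG region in its 3′ UTR, at 0.0515% in depressed-RNA embryos against 15.9% in normal-RNA embryos. A repeat was listed at this region (B1F2) and at the Nptx1 CHH region with 111 cytosines (RMER17C2).

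Dusp7 and Iffo2 had regions outside the island. In Dusp7 a CHG and a CHH region overlapped in a stretch listed as exon and promoter, at 1.37% and 0.224% in depressed-RNA embryos, against 20.6% and 17.6% in normal-RNA embryos. In Iffo2 an intronic CHH region of 139 cytosines (chromosome 4, 139589125 to 139589383), also listed as a promoter under an Ensembl ID with no gene name, was at 50.3% in depressed-RNA embryos and 33.0% in normal-RNA embryos. Such a level is rare for its class: of 5528 CHH regions higher in depressed-RNA embryos, 55 had a larger depressed level and 50 a larger normal level, and the medians were 4.76% in depressed-RNA embryos and 0.769% in normal-RNA embryos.

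**Figure D4:**
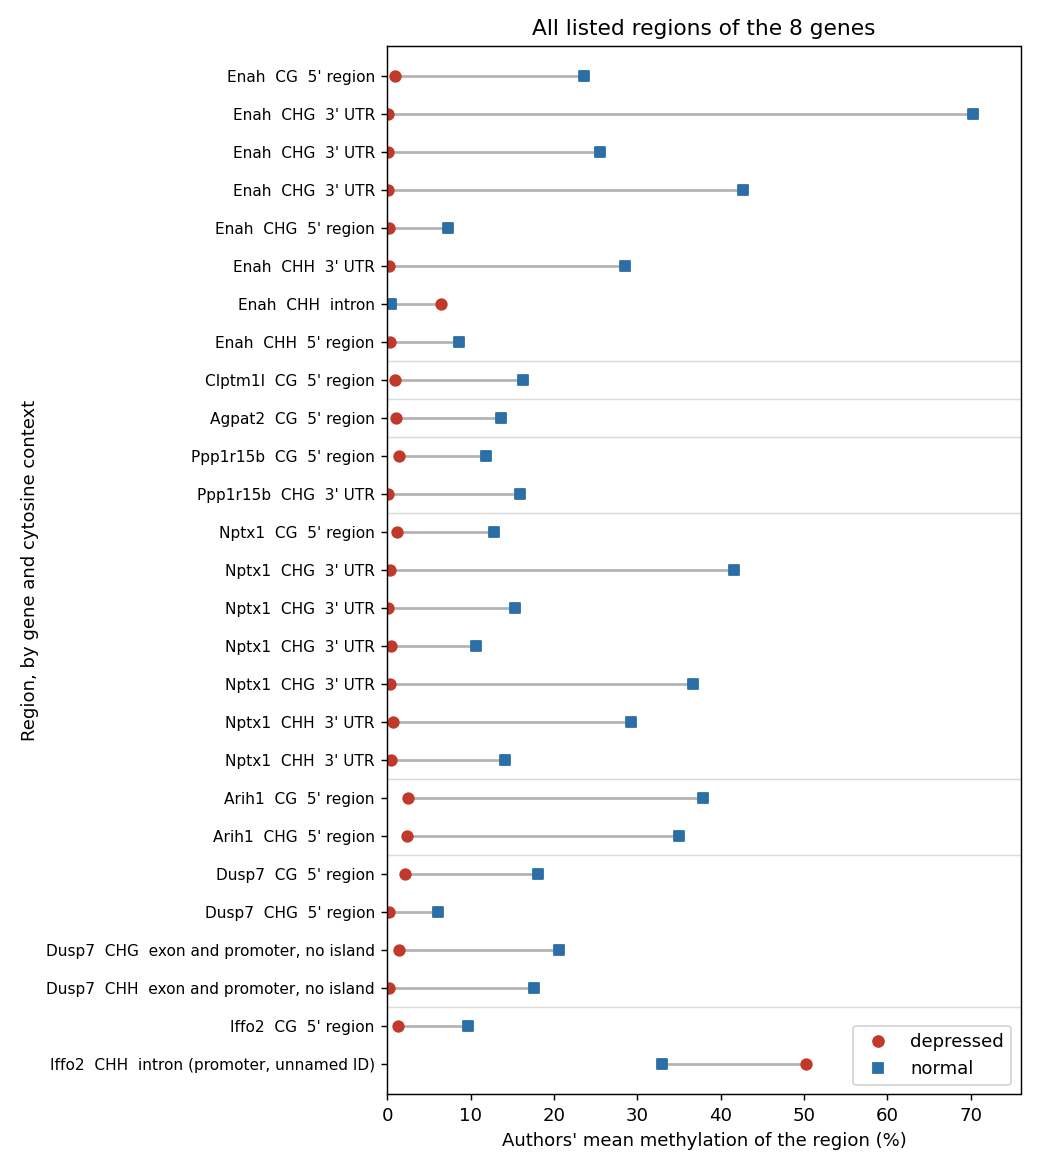
The authors' mean methylation (percent) of all 27 regions listed with the 8 genes, by gene, cytosine context and place, in depressed-RNA (circles) and normal-RNA embryos (squares). Depressed levels are under 3% in the 25 lower regions, while the intronic CHH regions of Enah and Iffo2 are higher in depressed-RNA embryos.

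Of 122 relatives and partners of the 8 genes, 2 had a CG region (1.64%), a share near the 2.58% of all 21896 protein-coding genes. A CHG region was listed for 18 of them (14.8% against 7.08%), lower in depressed-RNA embryos in 17 and higher in 1. A CHH region was listed for 23 (18.9% against 13.5%), lower in 15 and higher in 8. Of all regions in the table, 91.0% of CHG and 20.4% of CHH regions were lower. The lists were chosen with earlier results of these data known, so no excess is read from these shares. The CG regions, 2 in Agpat3 and 1 in Iffo1, were lower in depressed-RNA embryos. Agpat3, a sister of Agpat2, was at 3.28% in depressed-RNA embryos against 78.7% in normal-RNA embryos in its stronger region (exon and intron). Iffo1 was at 8.52% in depressed-RNA embryos against 67.6% in normal-RNA embryos, in a region listed as exon, intron, promoter and 3′ UTR. Whether these regions lie in an island was not looked up. As at Enah, a CHG region (0.615% in depressed-RNA embryos against 7.35% in normal-RNA embryos) and a CHH region (0.567% against 7.81%) lay over the CG region of Iffo1.

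The actin partners of Enah numbered 28, with 0 CG regions. The Ena/VASP sisters Vasp and Evl were not listed in any context, while 7 of the 28 genes had a CHG region, lower in 6 and higher in Raph1 (23.7% in depressed-RNA embryos against 0.118% in normal-RNA embryos). The strongest was in the 3′ UTR of the cofilin gene Cfl1, at 0.0589% in depressed-RNA embryos and 87.2% in normal-RNA embryos, with a CHH region over it at 0.312% against 88.0%. A CHH region was listed for 8 of the 28 genes, lower in 5 and higher in 3, namely Apbb1ip (22.3% in depressed-RNA embryos against 1.36% in normal-RNA embryos), Diaph2 (4.95% against 1.15%) and Fmnl2 (5.57% against 1.47%). In Wasf3, which promotes actin branching, the CHG level was 0.0869% in depressed-RNA embryos against 54.0% in normal-RNA embryos.

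The integrated stress response list of Ppp1r15b held 21 genes, none with a CG region. Its sister gene Ppp1r15a and the kinase genes Eif2ak1 to Eif2ak4 were not listed in any context. CHG regions in the 3′ UTR were listed for 2 of them, the translation factor gene Eif2s2 (0.0866% in depressed-RNA embryos against 73.5% in normal-RNA embryos) and the phosphatase gene Ppp1cb (3.76% against 76.6%), which Ppp1r15b binds as a subunit.

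Among 6 pentraxin genes related to Nptx1, the receptor gene Nptxr alone was listed, with CHG at 1.001% in depressed-RNA embryos and 52.4% in normal-RNA embryos in its 3′ UTR, where 2 CHH regions were lower as well. Of 23 ubiquitin ligase genes and cullin partners related to Arih1, its sister Arih2 had a CHG region (0.226% in depressed-RNA embryos against 23.7% in normal-RNA embryos). Of 16 genes of the ERK cascade around Dusp7, the kinase gene Mapk3 had a CHG region in the 3′ UTR (0.361% in depressed-RNA embryos against 26.6% in normal-RNA embryos), and of the 9 other dual-specificity phosphatases Dusp10 alone was listed, with a CHH region at 9.87% against 5.07%. Of 19 acyltransferase and lipin genes related to Agpat2, Gpat4 had a CHG region at its promoter and 5′ UTR (0.506% in depressed-RNA embryos against 32.3% in normal-RNA embryos). Clptm1 and Tert, the neighbour of Clptm1l, were not listed.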

How the data were processed

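Single-embryo bisulfite libraries went through Trim Galore 0.3.3, Bismark and SAMtools (mm10), per the submitters' processing notes. The region caller, its thresholds, any coverage filter and the pooling of embryos are not stated in any source at hand. Per the file headers, the deposited table gives each region's position, its count of cytosines, each group's mean methylation as a fraction, their difference and a signed region statistic, a score of the authors. The depth behind a fraction is unknown, so no interval is given.

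Fractions were multiplied to percent, and 18732 annotation entries were collapsed to 9707 regions by chromosome, start, end and context. Overlap means at least 1 shared base. The levels and differences are the authors' own values. The rule for named genes took the 8 genes, every other gene past the threshold, the 5 just below it, and related genes with a CG region or the strongest CHG or CHH statistics; some genes that it picks are not reported here. Sequences, gene spans and starts come from RefSeq tables for GRCm38.p6, in which all 8 genes and all 122 related genes were found. The members and lists were chosen with earlier results of these data known. Counting steps were tested on simulated data (Python 3.11.15, pandas 2.3.3, numpy 2.4.6).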

Additional observations from a re-analysis of the deposited data

How the results depend on the processing

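Weighting the 8 CG levels by the number of cytosines gave a mean of 1.29% in depressed-RNA embryos and 17.6% in normal-RNA embryos and a difference of -16.3 points, against medians of 1.22%, 15.0% and -14.1. The number of named genes with such a region was 10 at a minimum of 30 cytosines, 19 at 20, 13 at 25 and 5 at 40. It was 9 with promoter or 5′ UTR only and 13 with any annotation. The 3 overlaps with other contexts and the 27 listed regions kept their numbers under a 50% overlap, within 1 kb and within 10 kb of the gene. Of the 25 lower regions, 17 were left where the statistic was at or above the median of its context and 21 at a difference of at least 10 points. No paired analysis was possible because the table holds no values per embryo, and leaving out an embryo was not run for the same reason. Depth is unknown and limits every level.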
